A study of Mus musculus with 35 samples.

Results

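The chromatin around Myb held 12 of the 76018 ATAC-seq peaks that were counted in endothelial and emerging blood cells of the mouse embryo. They are the peaks whose midpoint lies between positions 20700000 and 21050000 of chromosome 10 in the mm9 build. Myb itself spans about chr10:20845000-20881000 on the minus strand, so that lower coordinates are on its 3′ side and higher coordinates on its 5′ side. The window was chosen by the read counts of a peak it holds, chr10:20774521-20775176, which were high in E9.5 pro-HSC/HPC against E9.5 hemogenic endothelium. That contrast is therefore a description here, and no comparison with pro-HSC/HPC was tested for any of the 12 peaks. The chosen peak was also left untested wherever the E9.5 hemogenic libraries enter.

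Myb encodes a DNA-binding transcription factor that blood progenitors and stem cells need, and loss of it in the mouse stops definitive but not primitive blood formation. Definitive blood stem and progenitor cells arise from hemogenic endothelium, a subset of the cells lining the dorsal aorta, through the endothelial-to-hematopoietic transition. The stretch between Myb and its 5′ neighbour Hbs1l is known in erythroid cells for distal regulatory elements that contact the Myb promoter. ATAC-seq inserts sequencing adapters into open chromatin with the transposase Tn5, so the reads counted in a peak measure how accessible it is.

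The embryos carried a transgene labelled 23GFP, whose driver the sources used here do not name, and all groups share it. Endothelial cells (EC) and hemogenic endothelium (HE) were each collected on 3 days (E8.5, then E9.5, then E10.5) in 4 libraries a day. The blood side was 3 libraries of E9.5 pro-HSC/HPC (hematopoietic progenitor cells), 4 of E10.5 pre-HSC I and 4 of E10.5 pre-HSC II, giving 35 libraries, each from a pool of 1500 sorted cells. The tissue is labelled PAS+VU for E8.5 and E9.5 and AGM+VU for E10.5, so day and dissection cannot be told apart between E9.5 and E10.5. The labels name biological replicates but do not say which embryos went into which pool. The files hold no expression values, and the labelled cell types were not checked against markers.

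Total counts in peaks ran from 456770 to 7415315 per library, and the 3 shallowest libraries, at 456770 to 701221, were all pre-HSC II. Levels below are CPM, reads in a peak relative to the library's TMM-scaled total, in which 3 counts stand for 0.426 to 5.15 CPM depending on the library. Libraries 2 and 3 of pre-HSC I differed by less than sampling noise (a chi-square of 0.461 for each degree of freedom, where other pairs gave 2.59 to 8.04) and entered as their mean, as 1 sample, so that n is 3 for this group. E8.5 libraries 1 and 2 of both populations and E10.5 HE libraries 1 and 4 were shallow within their groups, and E9.5 EC libraries 3 and 4 and HE library 4 were high at a single chromosome X peak. Calls that were lost without these libraries are given with and without them.

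The gene's start is covered by chr10:20880482-20881160. This peak spans the start, with its midpoint 0.179 kb downstream of it by the bounds given. The sequence just upstream of the start is shown, with matches to GGGCGG on either strand in capitals. It was taken from RefSeq for GRCm38.p6 (chr10:21160985-21161234 of that build, minus strand, 5′ to 3′). Coordinates of the 2 builds differ, so the sequence was not placed against the peak base by base.
Myb, 250 bases before the start: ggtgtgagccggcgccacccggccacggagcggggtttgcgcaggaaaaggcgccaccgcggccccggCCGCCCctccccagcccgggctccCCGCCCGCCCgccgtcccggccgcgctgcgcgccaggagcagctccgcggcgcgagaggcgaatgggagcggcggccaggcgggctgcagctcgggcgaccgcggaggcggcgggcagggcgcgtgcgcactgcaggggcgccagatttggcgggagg
Over the full 300 bases of the RefSeq window, which runs past the start, 75.0% of bases were G or C, more than in 96.1% of 32851 mouse promoter windows of that length (median 52.7%), and 40 CpG pairs were present. GGGCGG, the core letters of SP and KLF factor motifs, matched 3 times, of which 2 overlap, and 35.7% of all windows hold at least 1 match. CAGNTG (the E-box core) and AACNG (the MYB core) matched 1 time each, overlapping each other, after the start. These letters occur in 51.4% and 80.3% of all windows. GGAAG (ETS), GATAA (GATA) and TGTGGT (RUNX) had no match, which says only that these letters are not in this window. 71.4%, 25.4% and 16.8% of all windows hold them.

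Of the 12 peaks, 4 lay on the 3′ side, at 134, 112, 106 and 104 kb from the start, and 2 lay in the body, at 16.0 and 2.81 kb. A single peak lay at the start and 5 lay on the 5′ side, at 25.8, 28.0, 67.6, 108 and 135 kb. In RefSeq gene order Ahi1 is the protein-coding neighbour on the 3′ side and Hbs1l that on the 5′ side. The peaks were not assigned to exons, introns or neighbouring genes, since no annotation of mm9 was used here. They were 129 to 880 bp wide. Their median level over the 9 group means was 3.66 CPM, against 4.58 CPM for all 76018 peaks, and per kb of peak width it was 9.91 against 10.6 CPM. The start peak exceeded 67.1% of all peaks in level and 54.8% in level per kb, so it was not among the strongest peaks of the table. 11 of the 12 passed the filter on low counts. The exception, chr10:20906665-20906871 at 25.8 kb on the 5′ side, had group means of 0.286 to 2.29 CPM, highest in E9.5 HE, and was not tested.

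At the edges of the window, the outermost peak inside on the 3′ side (chr10:20746418-20746930) had group means of 1.50 to 13.7 CPM and the first one outside (chr10:20685971-20686224) of 1.96 to 13.9 CPM. On the 5′ side the outermost peak inside (chr10:21015482-21016362) had 9.95 to 31.0 CPM and the first one outside (chr10:21102849-21102999) 0.986 to 5.36 CPM.

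**Figure D1:**
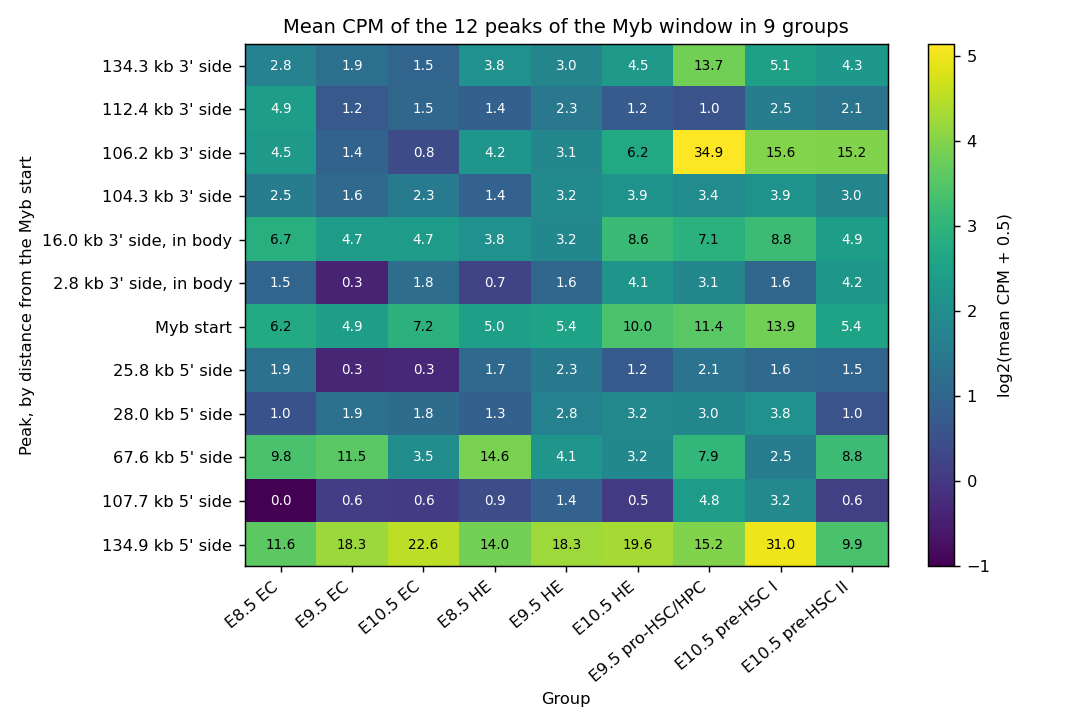
Mean CPM of each of the 12 peaks (rows, by distance from the Myb start in kb) in each of the 9 groups (columns), with the colour on a log2 scale of mean CPM plus 0.5. The row 106 kb on the 3′ side is at 34.9 CPM in pro-HSC/HPC and 0.817 CPM in E10.5 EC, while the row at the start stays between 4.91 and 13.9 CPM.

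The peak 106 kb on the 3′ side, chr10:20774521-20775176, was higher in the blood groups than in EC and HE, and lowest in E9.5 and E10.5 EC. Its 3 pro-HSC/HPC libraries measured 29.6, 37.0 and 38.1 CPM. The 3 pre-HSC I samples followed at 13.9, 20.4 and 12.3 CPM, and the 4 pre-HSC II libraries at 13.7, 14.8, 11.8 and 20.6 CPM. In HE the libraries measured 3.57, 5.76, 2.79 and 4.70 CPM at E8.5, then 5.26, 4.43, 1.13 and 1.55 CPM at E9.5, then 3.17, 4.04, 9.58 and 7.97 CPM at E10.5. In EC they measured 1.42, 3.45, 7.10 and 5.95 CPM at E8.5, 1.07, 2.26, 1.75 and 0.695 CPM at E9.5, and 0.466, 0.196, 0 and 2.61 CPM at E10.5. Every blood library lay above every EC and HE library, with a gap between 9.58 and 11.8 CPM. For pro-HSC/HPC against E9.5 HE this follows from the choice of the peak. The edges of the gap are E10.5 libraries (HE library 3 and pre-HSC II library 3). Each pro-HSC/HPC library lay above each pre-HSC sample. Here and below, non-overlap of libraries is a description, since its share over all peaks was not counted. In the order of group means pro-HSC/HPC stood alone, pre-HSC I and pre-HSC II overlapped, and the 6 EC and HE groups each overlapped the next in order. Since each library is a pool, more open cells and more open chromatin per cell cannot be told apart.

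**Figure D2:**
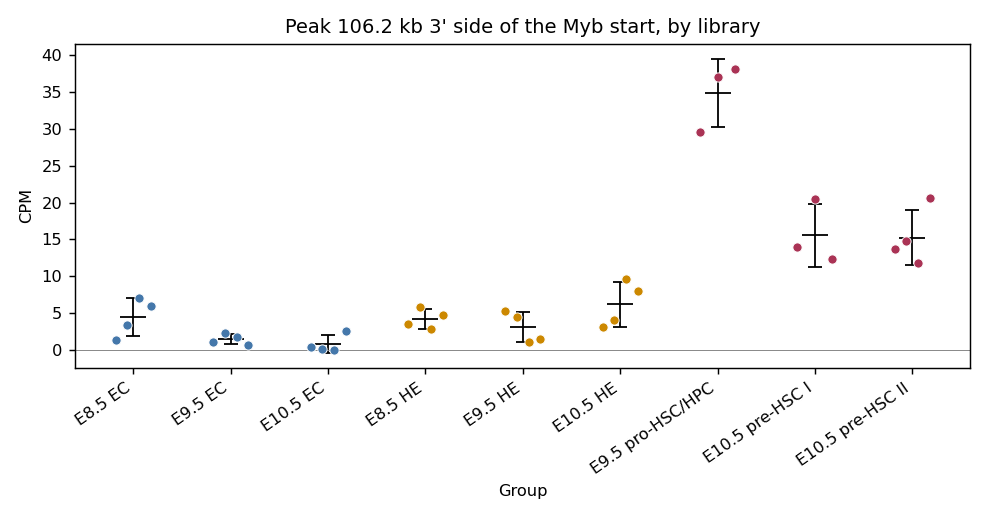
CPM at the peak 106 kb on the 3′ side of the Myb start in each library (points), with the group mean (long bar) and SD (whiskers), for EC, HE and blood groups. The lowest blood library is at 11.8 CPM and the highest EC or HE library at 9.58 CPM. The peak was chosen on pro-HSC/HPC against E9.5 HE.

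Within E10.5 this peak gave 3 called differences by edgeR's quasi-likelihood test (Benjamini-Hochberg adjusted p of 0.05 over 67131 peaks), all against the same 4 EC libraries. HE was higher than EC by 2.91 ± 0.63 (SE) on the log2 scale (adjusted p = 0.00428), and the libraries did not overlap. Pre-HSC I was higher than EC by 4.22 ± 0.62 (adjusted p = 1.21e-05) and pre-HSC II by 4.21 ± 0.62 (adjusted p = 3.93e-07). The size of each rests on EC library 4, which held 9 of the 11 counts of EC. Without it the log2 differences were 4.73, 6.03 and 6.04, and with 2 counts left in EC the ratios were 34.8 (exact 95% counting interval 9.19 to 294), 85.6 (23.0 to 718) and 86.8 (23.0 to 734). The HE call was lost when only these groups entered the fit (2.94, adjusted p = 0.125) and after thinning all libraries to the smallest total (1.96, adjusted p = 0.383). The same-numbered E10.5 libraries deviated together. With that pairing as a block in the fit of these groups alone the adjusted p was 0.0221 (3.36). This alternative was chosen after seeing the data, and the pairing rests on the replicate numbers only.

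The steps after HE at this peak were not called. Pre-HSC I lay above HE in every sample, by 1.31 ± 0.53 on the log2 scale, but the adjusted p was 0.452, in a comparison in which few peaks pass (0.0700% of all). Pre-HSC II and pre-HSC I differed by -0.01 ± 0.53 (adjusted p = 0.994). At E8.5 HE and EC were close, at a log2 difference of -0.22 ± 0.54 (adjusted p = 0.907). EC fell from 4.48 to 1.44 CPM between E8.5 and E9.5, by 1.70 ± 0.59 on the log2 scale (adjusted p = 0.0485). That call sits at the threshold, the libraries overlap, and it was lost in 7 of the 8 fits that left out 1 library of these groups (all but the fit without E8.5 EC library 1, with log2 differences of -2.08 to -1.39). It was lost too without the shallow E8.5 libraries (-2.19, adjusted p = 0.0561) and without the E9.5 libraries high at the chromosome X peak (-1.48, adjusted p = 0.207). As a description, pro-HSC/HPC exceeded E9.5 HE 9.99-fold and E9.5 EC 23.5-fold, in contrasts that call 1.73% and 11.8% of all peaks in either direction. E9.5 HE exceeded E9.5 EC by 1.23 on the log2 scale, with overlapping libraries.

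The other peaks on the 3′ side were lower and less uniform. chr10:20746418-20746930, 134 kb away, also had its highest mean in pro-HSC/HPC, with libraries at 21.0, 15.5 and 4.57 CPM against 1.13 to 4.91 CPM in E9.5 HE, where the lowest pro-HSC/HPC library overlaps. At E10.5 its means were 1.50 CPM in EC, 4.47 in HE, 5.10 in pre-HSC I and 4.31 in pre-HSC II, and none of the differences was called (adjusted p of 0.387, 0.167 and 0.0982 against EC). chr10:20768379-20768816, 112 kb away, ran the other way and was highest in E8.5 EC, at 5.68, 3.45, 5.61 and 4.90 CPM. All 4 lay above the E8.5 HE libraries (1.19 to 1.49 CPM) and the E9.5 EC libraries (0.873 to 1.39 CPM). These lower values rest on 2 to 8 counts in E8.5 HE and 1 to 8 in E9.5 EC. Neither difference was called (adjusted p of 0.332 and 0.123). chr10:20776503-20776906, the closest neighbour of the 106 kb peak, stayed between group means of 1.42 and 3.90 CPM and was at 3.42 CPM in pro-HSC/HPC.

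The start peak was called in no tested comparison, which does not show that it stayed the same. Its pro-HSC/HPC libraries measured 9.68, 11.0 and 13.7 CPM and its pre-HSC I samples 12.6, 15.0 and 14.1 CPM. HE libraries measured 5.95, 5.12, 2.61 and 6.32 CPM at E8.5, 4.12, 3.80, 6.76 and 6.96 CPM at E9.5, and 5.55, 4.71, 8.26 and 21.5 CPM at E10.5. EC libraries measured 5.68, 4.31, 2.99 and 11.9 CPM at E8.5, 6.13, 5.84, 3.49 and 4.17 CPM at E9.5, and 12.6, 1.57, 3.70 and 11.0 CPM at E10.5. The pre-HSC II libraries were split between 0, 6.18, 0 and 15.4 CPM, and the libraries at 0 are 2 of the 3 shallowest of that group. The pro-HSC/HPC libraries lay above all E9.5 EC and HE libraries, 2.16-fold above HE in the fit. The pre-HSC I samples reached just above all E10.5 EC libraries, at a log2 difference of 1.00 ± 0.58 that was not called (adjusted p = 0.382). The largest tested difference was that of pre-HSC II from pre-HSC I, at -1.14 ± 0.64 with overlapping libraries (adjusted p = 0.323).

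Of the peaks in the body, chr10:20864744-20865273 had group means of 3.17 to 8.80 CPM and was highest in pre-HSC I, and chr10:20878019-20878359 ranged from 0.265 CPM in E9.5 EC up to 4.23 CPM in pre-HSC II. The first was higher in E10.5 HE (8.61 CPM) than in E9.5 HE (3.17 CPM) without passing the test (log2 difference 1.31 ± 0.56, adjusted p = 0.337). The second stood at 0, 0, 0.306 and 0.754 CPM in the E9.5 EC libraries and at 0.783 to 2.89 CPM in those of E10.5, which do not overlap, and this was not called (adjusted p = 0.492).

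On the 5′ side, between Myb and the end of the window, the most accessible peaks had other patterns than the 106 kb peak. chr10:20948318-20948857, at 67.6 kb, was highest in the E8.5 groups and in E9.5 EC. Its HE libraries measured 9.52, 24.3, 10.1 and 14.5 CPM at E8.5 and 5.12, 3.48, 3.94 and 3.87 CPM at E9.5, with no overlap. This fall of 1.79 ± 0.46 on the log2 scale was called (adjusted p = 0.0240). The call was lost in 5 of 8 fits without 1 library (without E8.5 HE library 2 or 4, or E9.5 HE library 2, 3 or 4), where the log2 differences ran from -1.93 to -1.41. It was lost too without the shallow E8.5 libraries (-1.53, adjusted p = 0.369) and without the 3 E9.5 libraries that chromosome X set apart (-1.73, adjusted p = 0.121).

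In EC the 67.6 kb peak was at 9.83 CPM at E8.5, 11.5 CPM at E9.5 (libraries 7.66, 6.97, 15.7 and 15.6) and 3.54 CPM at E10.5 (libraries 2.79, 5.67, 4.55 and 1.16). All E9.5 EC libraries lay above all E9.5 HE libraries and above all E10.5 EC libraries. By edgeR neither difference was called, at log2 differences of -1.41 ± 0.47 for HE against EC (adjusted p = 0.0908) and -1.60 ± 0.47 for E10.5 against E9.5 EC (adjusted p = 0.142), and DESeq2 called both. EC libraries 3 and 4, the highest of E9.5, are those high on chromosome X, and without them and HE library 4 the difference between HE and EC was -0.78 (adjusted p = 0.923). Without these libraries that between E10.5 and E9.5 EC was -0.99 (adjusted p = 0.807). Between E8.5 and E9.5 the difference of HE from EC itself changed by -1.96 ± 0.65, which was not called (adjusted p = 0.113, and -1.35 with adjusted p = 0.551 without those 3 libraries). Pre-HSC II libraries measured 1.72, 12.4, 13.0 and 8.08 CPM against 4.43, 1.99 and 1.18 CPM in pre-HSC I, a log2 difference of 1.84 ± 0.63 (adjusted p = 0.0719). Its lowest library is also the shallowest of the series.

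The most accessible peak of the window, chr10:21015482-21016362 at 135 kb on the 5′ side, was open in every group and lowest in pre-HSC II. Pre-HSC I samples measured 29.1, 26.9 and 37.0 CPM, E10.5 HE libraries 25.4, 16.1, 15.2 and 21.5 CPM, E10.5 EC libraries 21.4, 17.0, 26.2 and 25.8 CPM and pre-HSC II libraries 6.87, 4.95, 11.8 and 16.2 CPM. Pre-HSC II did not overlap pre-HSC I or EC. It was lower than pre-HSC I by a log2 difference of -1.55 ± 0.40 (adjusted p = 0.0134) and lower than EC by -1.10 ± 0.38 (adjusted p = 0.0249). RLE size factors raise the median of all peaks by 0.27 in both contrasts. With them these were -1.31 (adjusted p = 0.0551) and -0.84 (adjusted p = 0.101), so neither call held. Both were lost too after thinning and with only the groups compared. By DESeq2 the first stayed called and the second was -0.83 (adjusted p = 0.0744). In total the first was lost in 3 of 7 alternatives and the second in 4 of 7, and the cause was not tested. Without pre-HSC II library 2 both calls were lost too, the first also without pre-HSC I library 4 and the second without EC library 3 or 4. In pro-HSC/HPC this peak was at 15.2 ± 1.40 CPM (SD, n = 3), 1.20-fold below E9.5 HE. The 106 kb peak, higher in that contrast, was chosen on it.

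**Figure D3:**
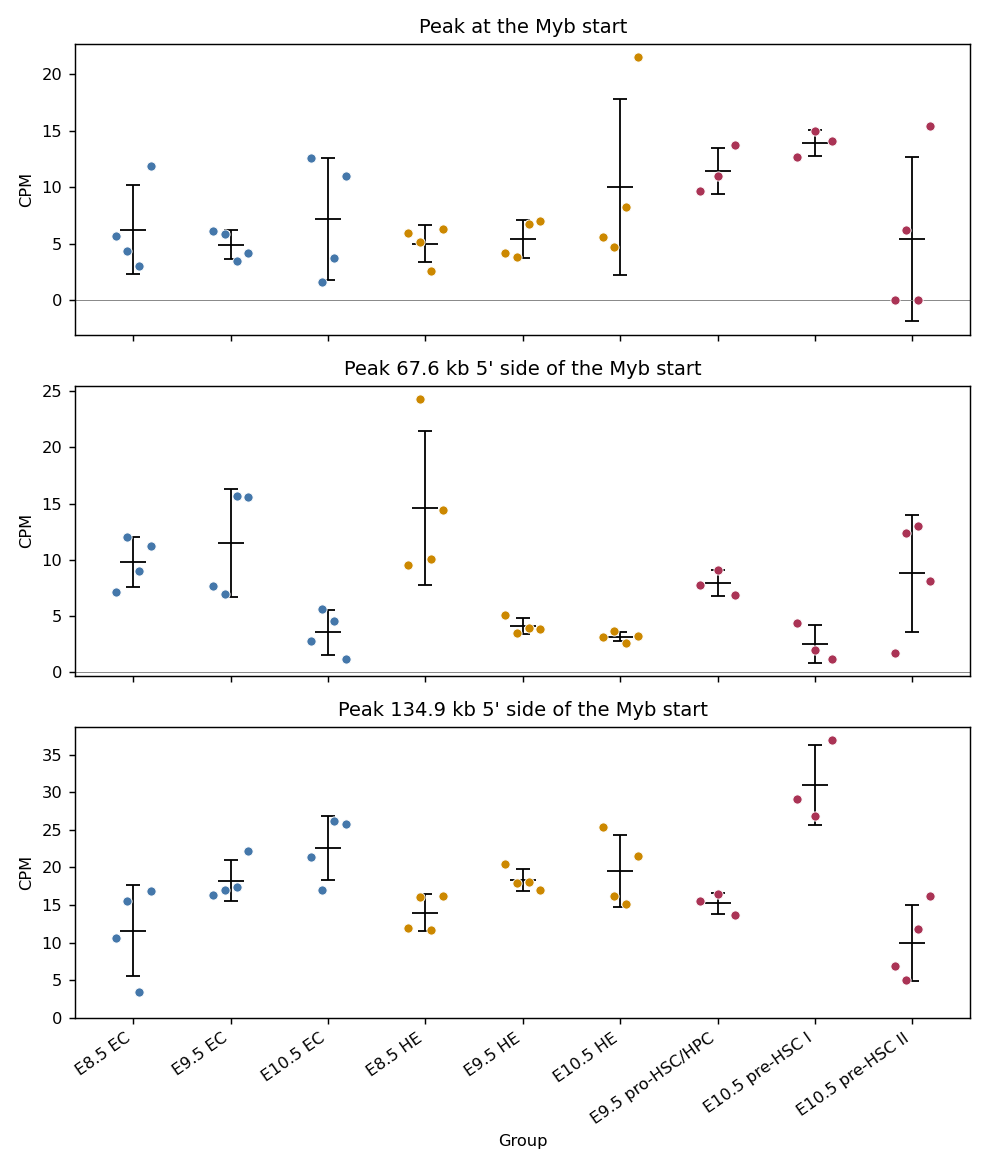
CPM in each library (points) with group mean (long bar) and SD (whiskers) at the Myb start and at the peaks 67.6 and 135 kb on its 5′ side. The panel for 67.6 kb has its highest mean in E8.5 HE (14.6 CPM), and the panel for 135 kb has its lowest in pre-HSC II (9.95 CPM).

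The remaining peaks on the 5′ side were small. chr10:20908916-20909045, at 28.0 kb, had group means of 0.970 to 3.81 CPM, and its pre-HSC I samples (3.16, 2.99 and 5.29 CPM) lay above all pre-HSC II libraries (0, 2.47, 0 and 1.47 CPM) without a call (adjusted p = 0.325). chr10:20988641-20988819, at 108 kb, had no count in any E8.5 EC library, where 3 counts over the group would be 0.370 CPM, and means of 4.80 CPM in pro-HSC/HPC (8.60, 5.02 and 0.761) and 3.24 CPM in pre-HSC I (2.53, 2.49 and 4.70). No tested comparison called it.

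Read over the whole window, few of the peaks passed the test in any comparison. HE against EC called 1 of 11 peaks at E10.5 (the 106 kb peak, higher, as were 0.717% of all peaks). It called 0 of 11 at E8.5 (1.43% of all peaks in either direction) and 0 of 10 at E9.5 (2.58%). DESeq2 called 0 and 1 there. An unadjusted p under 0.05 was found for 2 and 1 of the window's peaks, and for 9300 and 8543 of all 67131 peaks. Against E10.5 EC, pre-HSC I had 1 of 11 called higher (2.18% of all peaks), and pre-HSC II had 1 higher (9.14%) and 1 lower (16.2%). Pre-HSC II against pre-HSC I had 1 lower (4.04%). With RLE size factors the calls were 2 higher and 0 lower for pre-HSC II against EC, and 1 higher and 0 lower against pre-HSC I. Over all peaks RLE called 16018 and 2139 in either direction in these contrasts, against 16981 and 3271 in the main fit. By DESeq2 the window's calls were 3 higher and 0 lower for pre-HSC II against EC. Pre-HSC I against HE had 0 (0.0700%), by DESeq2 too, with 1 peak (5488 over all peaks) at an unadjusted p under 0.05. For EC from E8.5 to E9.5 1 of 11 was lower (4.57%), and for HE 1 of 10 (1.24%). From E9.5 to E10.5 EC had 0 of 11 (0.316%) and HE 0 of 10 (0.556%), where DESeq2 called 1 and 0. There 2 and 1 of the window's peaks, and 6143 and 7503 of all peaks, had an unadjusted p under 0.05. Tests of whether the gap between HE and EC itself differed from day to day called 0 of 10 by edgeR. Of all peaks they called 1.50% from E8.5 to E9.5 and 0% from E9.5 to E10.5. DESeq2 called 1 and 0 of the window's peaks. An unadjusted p under 0.05 was found for 3 and 0 of the window's peaks, and for 8937 and 1767 of all peaks. As a description of the 11 peaks that passed the filter, their median log2 difference from EC at E10.5 was 0.73 in HE, 0.91 in pre-HSC I and 0.42 in pre-HSC II, where the medians of all peaks were 0.01, 0.04 and -0.14. Each edgeR count above 0 rests on 1 or 2 of the peaks, and the members' counts are to be read against these shares. The shares are those of the main edgeR fit, and none is given here for the DESeq2 counts.

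**Figure D4:**
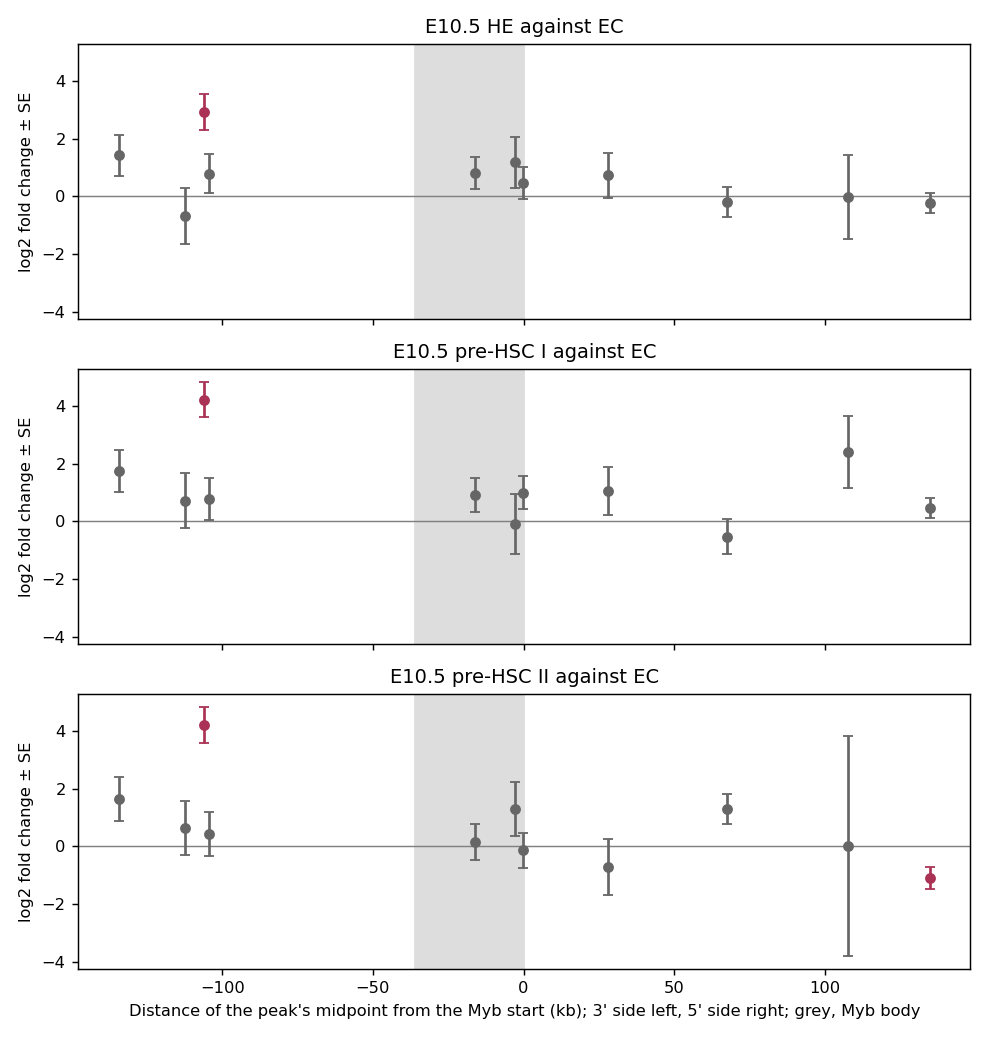
Log2 fold change with SE of the 11 tested peaks at E10.5 for HE, pre-HSC I and pre-HSC II against EC, by distance from the Myb start in kb (3′ side left, 5′ side right, gene body in grey). Red points passed an adjusted p of 0.05. The same 4 EC libraries are used in all 3 panels, and the point 106 kb on the 3′ side stands highest in each.

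Summed over its 12 peaks, the window measured 108 ± 15.4 CPM (SD, n = 3) in pro-HSC/HPC and 93.6 ± 8.76 CPM (n = 3) in pre-HSC I, and its means in the other groups were between 48.5 and 66.1 CPM. The 106 kb peak, on which the window was chosen, made up on average (the mean of each library's share) 33.2% of the sum in pro-HSC/HPC, 27.1% in pre-HSC II, 16.8% in pre-HSC I and 1.49% in E10.5 EC. Without it the sums were 72.8 ± 18.6 CPM in pro-HSC/HPC, 78.0 ± 10.4 in pre-HSC I and 45.8 ± 25.0 CPM (n = 4) in pre-HSC II. They were 47.5 ± 3.48 CPM in E9.5 HE, 59.9 ± 22.0 CPM in E10.5 HE and 47.9 ± 9.32 CPM in E10.5 EC (n = 4 each).

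Across the 9 group means of log2 CPM, which share libraries and depth, the peaks of the window did not move as a block. Over the 55 pairs of the 11 peaks that passed the filter, Pearson's r ran from -0.71 to 0.89 with a median of 0.12, and 6 pairs exceeded 0.7. The 106 kb peak was most like the 134 kb peak of the same side (r = 0.86), and its r with the start peak was 0.29. The start peak was closest to the body peak 16.0 kb away (r = 0.83). Among all 67130 other peaks tested, those most like the 106 kb peak were chr8:14890588-14891085 (r = 0.98), chr12:41909415-41909893 (0.97), chr9:72816343-72816706 (0.97), chr15:95670336-95670601 (0.97) and chr4:59838583-59838787 (0.96), and 184 had an r above 0.9. For the start peak the closest was chr3:153321446-153321863 (r = 0.98), and 157 had an r above 0.9. The 9 groups include pro-HSC/HPC and E9.5 HE, on which the 106 kb peak was chosen. How high such an r runs for peaks in general was not computed, so these lists are a description.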

How the data were processed

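ATAC-seq was measured in 35 libraries of 9 groups, taken from the sample titles. The authors deposited raw read counts per peak, not normalized, for 76018 peaks in mm9. Per the submitters' processing notes reads went through MACS2 2.0.1, DiffBind 1.14.6, Bowtie 1.0.0, Trim Galore 0.3.1, deepTools, bedtools 2.17.0 and SAMtools, named without order, and the sources used here do not say whether reads were shifted to the Tn5 site. Counts were more often even than odd (54.1% to 78.2% of counts from 10 to 49 were even), so reads may be counted in pairs and counting intervals, which cover counting error only, may be too narrow. E9.5 samples have an E8.5 tissue label, and titles were followed for the day.

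The 34 samples were fitted together with edgeR 4.0.16 (TMM, filterByExpr by group, glmQLFit and glmQLFTest, two-sided), which left 67131 peaks, and adjusted p-values were taken over all of these. P-values rest on the spread among these samples, which may in part be technical. Alternatives were RLE scaling, DESeq2 1.42.0, no filter, thinning, fits of only the groups compared, a replicate block and left-out libraries. Same-numbered libraries deviated together most clearly for E10.5 HE and EC (r of 0.124 to 0.311 across peaks). Weaker positive r in every pair was also found elsewhere, as for HE and EC at E8.5 (0.0246 to 0.0578) and at E9.5 (0.0510 to 0.167).

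The window, its peaks and the lists were chosen with earlier results of these data known. Library values are given for the peak that chose the window, the start peak and each peak called in a tested comparison, and others were named after their values were seen. Likeness is Pearson's r over the 9 group means.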

Additional observations from a re-analysis of the deposited data

Results flagged for a closer look

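Each peak was checked in each group of 4 libraries for a highest or lowest library whose gap to the next, divided by the range, exceeded Dixon's 95% critical value. Of 83 groups checked 5 stood out. Chance alone gives about 1 in 20 for normally distributed values, which counts this low are not. At chr10:20776503-20776906 pre-HSC II library 3 was low at 1.18 CPM, against 3.43 to 3.71 CPM in the others. At chr10:20906665-20906871 E8.5 HE library 3 was low at 1.12 CPM, against 1.79 to 1.92 CPM. At chr10:20908916-20909045 E8.5 EC library 2 was high at 1.72 CPM, against at most 0.748 CPM. At chr10:20988641-20988819 E10.5 EC library 3 held the only counts of its group, at 2.28 CPM, as did pre-HSC II library 2 at 2.47 CPM. A group in which only a single library holds counts is flagged at any value, since its gap equals its range. The 4 values other than that of E10.5 EC library 3 rest on 1 to 6 counts.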

How the results depend on the processing

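The number of the window's peaks called was recomputed under each alternative. For some counts the total called over all peaks in either direction follows in brackets. The other counts are given without that total. It stayed at 0 for E8.5 HE against EC, pre-HSC I against HE, HE from E9.5 to E10.5 and the second change of the HE and EC gap (E9.5 to E10.5) in all alternatives run. For EC from E8.5 to E9.5 the count was 1 (7425 over all peaks). It became 0 without the count filter (7456 over all peaks) and with the replicate block (8402 over all peaks). It was also 0 after thinning, without the shallow E8.5 libraries and without the E9.5 libraries set apart by chromosome X, and 2 by DESeq2. For HE over the same days the count of 1 became 0 after thinning and without either set of libraries. For E10.5 HE against EC it became 0 after thinning and with only the groups compared, and 1 again when the pairing was added as a replicate block, an alternative chosen after seeing the data. For pre-HSC II against pre-HSC I the count of 1 (3271 over all peaks) became 0 after thinning and with only these groups. It was 2 by DESeq2, and 2 with the near-identical libraries kept apart (5046 over all peaks). RLE kept it at 1 (2139 over all peaks), with the 67.6 kb peak (chr10:20948318-20948857, higher, 2.12) called and the 135 kb peak not. For pre-HSC II against EC the count of 2 became 1 after thinning and with only these groups, and by DESeq2 it was 3, all higher. For E9.5 HE against EC the count of 0 became 1 by DESeq2 and with only these groups, for EC from E9.5 to E10.5 1 by DESeq2, and for the change of the gap from E8.5 to E9.5 1 by DESeq2 and with only these groups. The cause was not tested.

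With 1 library left out at a time the count ran from 0 to 1 for EC and for HE from E8.5 to E9.5, from 1 to 2 for pre-HSC I against EC, from 1 to 3 for pre-HSC II against EC and from 0 to 2 for pre-HSC II against pre-HSC I. The 106 kb peak stayed called in pre-HSC I and pre-HSC II against EC in every alternative (log2 differences of 3.23 to 4.33 and 4.02 to 4.55, and 3.78 to 6.03 and 3.79 to 6.04 with 1 library left out). In the fit of all groups the replicate block changed no other call than the one named, and no result reversed. After thinning the 67.6 kb peak could not be fitted for HE from E8.5 to E9.5, nor the 106 kb peak for EC over these days with only these groups, since they did not pass the filter. In the library of 456770 counts 3 counts stand for 5.15 CPM.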
